A study of Mus musculus with 2 samples.

Results

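The cells described here are the mouse embryonic stem cells with the highest linker histone messenger RNA in each of 2 single-cell libraries. Barcodes were kept with no fewer than 2500 UMIs (unique molecular identifiers, each marking 1 captured transcript) and 1000 genes, and with 10% or less of their UMIs in mitochondrial genes. In each, the UMIs of Hist1h1a, Hist1h1b and Hist1h1e were summed and divided by the cell's total, per 10000 UMIs. The top 10% of cells of each library by this score were taken as the histone-high cells, 498 of 4978 kept control cells and 273 of 2731 kept sonKD cells, 771 of 7709 in all. They were set against the other 4480 control and 2458 sonKD cells of the same library. Both libraries came from E14 cells of 129/Ola background, an established line, grown on gelatin in serum with leukaemia inhibitory factor. Lipofectamine2000 delivered either a control siRNA (the library named control) or an siRNA against Son (sonKD) 24 h after seeding, and cells were detached 24 h later. Both samples were frozen, thawed and sorted on 7-AAD before barcoding with 10x Genomics 3' v3 chemistry. Each condition had 1 library, so cells are not replicates, no test was possible, and the library and the knockdown cannot be told apart. Every interval given is a 95% interval that covers counting error only.

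Linker histones of the H1 family bind DNA where it enters and leaves the nucleosome, and the core histones H2A, H2B, H3 and H4 form the nucleosome itself. Cells make most of both during S phase, when each daughter strand has to be packed, from genes that lie in clusters, lack introns and give messenger RNA ending in a stem-loop in place of a poly(A) tail. The stem-loop is bound by the protein SLBP, and the messages are degraded when replication ends. Embryonic stem cells cycle fast with a short G1, so a large share of a culture is in S phase at any time. Chemistry that primes on poly(A) reads such transcripts only in part, which bears on every histone level given here.

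The score genes lie within the Hist1 cluster of chromosome 13, where GENCODE M21 on GRCm38 places Hist1h1b (ENSMUSG00000058773) at chr13:21779883-21780625 on the minus strand, Hist1h1e (ENSMUSG00000051627) at chr13:23620629-23622558 on the minus strand and Hist1h1a (ENSMUSG00000049539) at chr13:23763666-23764406 on the plus strand. Each is a gene for a linker histone protein. The 150 bases before the RefSeq start of the score genes and of Hist1h1c, a linker histone that the score did not use, are printed because these genes were high in the same cells. For the score genes this follows from the choice of cells. Capitals mark AAACACA (known as the H1 box), CCAATCA, found in many promoters, TATAAA, and CACCAATCACAGC, the longest run of bases that the Hist1h1a and Hist1h1b promoters share, which contains CCAATCA. All were searched on both strands. RefSeq gives the windows on GRCm38.p6 as chr13:23763518-23763667 (plus strand) for Hist1h1a, chr13:21780626-21780775 (minus strand) for Hist1h1b, chr13:23622559-23622708 (minus strand) for Hist1h1e and chr13:23738657-23738806 (plus strand) for Hist1h1c.
Hist1h1a: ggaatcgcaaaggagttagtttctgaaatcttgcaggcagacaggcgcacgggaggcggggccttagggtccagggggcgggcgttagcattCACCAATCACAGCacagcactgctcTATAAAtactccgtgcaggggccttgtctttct
Hist1h1b: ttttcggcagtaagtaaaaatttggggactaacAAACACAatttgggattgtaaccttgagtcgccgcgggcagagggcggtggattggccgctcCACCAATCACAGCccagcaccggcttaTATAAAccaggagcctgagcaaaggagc
Hist1h1e: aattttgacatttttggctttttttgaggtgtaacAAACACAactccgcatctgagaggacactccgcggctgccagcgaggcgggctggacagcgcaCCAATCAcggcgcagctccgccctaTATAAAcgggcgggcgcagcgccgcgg
Hist1h1c: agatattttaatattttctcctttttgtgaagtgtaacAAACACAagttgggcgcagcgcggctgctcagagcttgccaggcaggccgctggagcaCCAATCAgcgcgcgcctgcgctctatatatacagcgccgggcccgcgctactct

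The AAACACA letters began 117 bases before the start of Hist1h1b, 115 before that of Hist1h1e and 112 before that of Hist1h1c, and CCAATCA began 56, 53, 52 and 54 bases before the starts of Hist1h1a, Hist1h1b, Hist1h1e and Hist1h1c. Hist1h1a held no AAACACA in the 300-base window from 250 bases before to 50 bases after the start. Over 300-base windows, 5 of 6 linker histone genes of the cluster held AAACACA and 6 held CCAATCA, against 4 and 32 of 56 matched core histone genes. Of all 32851 RefSeq promoter windows, 7.18% held AAACACA, 7.82% CCAATCA, 13.6% TATAAA and 0.0213% (7 windows) CACCAATCACAGC. The 3 linker histone genes with CACCAATCACAGC were Hist1h1a, Hist1h1b and the testis gene Hist1h1t, and no core histone window held it. The run was taken from Hist1h1a and Hist1h1b, so their matches were fixed in advance and only that of Hist1h1t was not. These matches describe the sequences and were not tested as binding sites.

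The stem-loop at the end of histone messages was found in the GENCODE M21 transcripts of 44 of 67 cluster histone genes (65.7%) and of 9 of 55383 other genes (0.0163%). Pieces of at most 30 bases are printed for 1 score gene and for 3 genes of the other classes, to show how alike the stem-loops are. The 16 bases of the stem-loop are in capitals. Which transcript ends gave the counts was not tested. On chromosome 13 they lie at chr13:23621775-23621804 (minus strand, Hist1h1e), chr13:23570661-23570690 (minus strand, Hist1h2ae), chr13:23561896-23561925 (minus strand, Hist1h3e) and chr13:23581943-23581972 (plus strand, Hist1h4d).
Hist1h1e: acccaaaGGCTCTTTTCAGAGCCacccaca
Hist1h2ae: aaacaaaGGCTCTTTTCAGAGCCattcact
Hist1h3e: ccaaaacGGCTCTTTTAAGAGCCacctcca
Hist1h4d: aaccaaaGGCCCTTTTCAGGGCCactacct

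The models of Hist1h1e, Hist1h3e and Hist1h4d run on for 1153, 369 and 770 bases after the stem-loop, so they hold longer transcript forms as well. The models of Hist1h1a and Hist1h1b showed no stem-loop within their annotated ends.

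The deposited matrices listed 71046373 UMIs in control and 60352438 in sonKD over all barcodes. The histone-high cells had a median of 8042.5 UMIs and 2987.5 genes in control, against 7702.5 and 2863 in the other cells, and 12317 UMIs and 3732 genes in sonKD, against 11480.5 and 3461. Their mitochondrial share had a median of 3.54% in control and 3.83% in sonKD (other cells 3.68% and 4.13%), and their ribosomal protein share 20.3% and 23.5% (other cells 21.2% and 24.5%). With the cells of a library in 4 equal groups ranked on UMIs, from shallow to deep, 6.59%, 10.9%, 13.7% and 8.84% of control cells were histone-high, and 5.42%, 9.81%, 13.9% and 10.8% of sonKD cells. The 2 libraries shared 2 kept barcodes, and none of them was histone-high in both. Scrublet called 3 control and 1 sonKD barcode as doublets, a share of 0.0603% and 0.0366% that is too low for a working call, so no doublet was removed. Of the 3.98% and 2.18% of barcodes with the highest doublet scores, 16 control and 2 sonKD barcodes were histone-high, 3.21% (interval 1.85% to 5.17%) and 0.733% (0.0888% to 2.62%) of those cells, against 4.06% and 2.36% of the other cells.

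The score had no gap between the histone-high cells and the rest in either library. In bins of 2.5 the most cells lay in the lowest bin, 1005 in control and 505 in sonKD, and the counts rose again in places, in sonKD from 206 cells in the bin from 10 to 256 in that from 12.5. Its median was 24.8 in histone-high control cells and 7.58 in the others, and 31.1 and 9.77 in sonKD. The lowest histone-high score was 20.797 in control, beside 20.795 for the next cell, and 26.148 in sonKD, beside 26.105. The highest was 62.1 in control and 55.8 in sonKD. No UMI of the score genes was seen in 516 control cells (11.5% of the other cells) and 193 sonKD cells (7.85%). The top 10% is therefore a range of a continuous measure and not a separate class of cells.

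**Figure D1:**
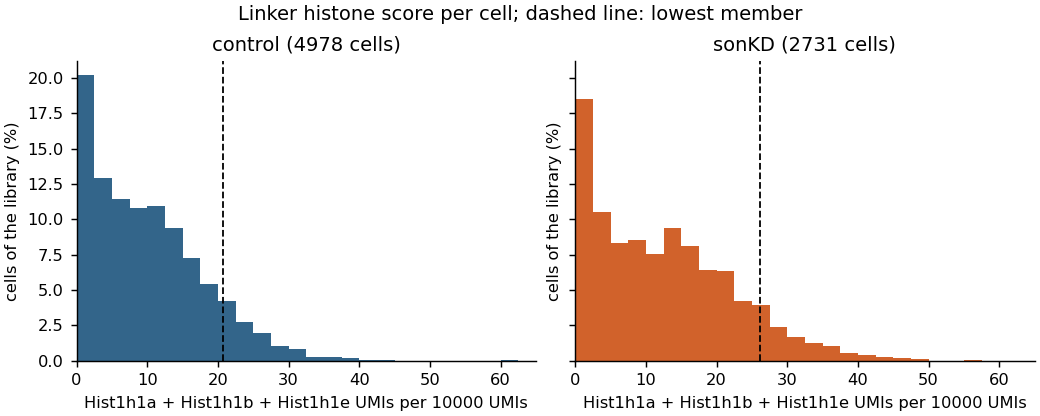
Share of kept cells (vertical axis, percent of the library) by linker histone score (horizontal axis, summed Hist1h1a, Hist1h1b and Hist1h1e UMIs per 10000 UMIs of the cell) in control and sonKD. The dashed line is the lowest histone-high score, 20.797 in control and 26.148 in sonKD, and the bins next to it all held cells. Empty bins lie far above it, just before the highest score of each library.

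The score genes themselves are given as a description, since they chose the cells. Levels are in CPM, the gene's UMIs per 1000000 UMIs summed over a set of cells, and ratios are log2 of histone-high over other cells. Hist1h1b, the most abundant, was at 2145 CPM in histone-high and 692 CPM in other control cells, and at 2619 and 884 CPM in sonKD. It gave 82.8% of the score's UMIs in control and 80.8% in sonKD, so the choice of cells was mostly a choice on Hist1h1b. Hist1h1a was at 229 and 85.0 CPM in control and at 331 and 116 CPM in sonKD. Hist1h1e was at 215 and 75.9 CPM in control and at 290 and 102 CPM in sonKD, but its 3' end is shared in full with Hist1h2be and Gm11398, which overlap it on the same strand, so its counts are uncertain. The ratios were 1.63 and 1.57 for Hist1h1b, 1.43 and 1.51 for Hist1h1a, and 1.5 and 1.51 for Hist1h1e in control and sonKD. All score genes were higher in sonKD than in control in both sets of cells, by 0.29 to 0.53 (log2) in the histone-high cells and by 0.35 to 0.45 in the others.

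Choosing the cells on part of the score and reading the rest showed how far the genes moved together. With cells chosen on the other score genes, Hist1h1a was 1.98-fold (1.83 to 2.15) higher in the chosen cells in control and 2.34-fold (2.17 to 2.51) in sonKD. Hist1h1e was 2.21-fold (2.04 to 2.40) and 2.32-fold (2.15 to 2.5) higher. Hist1h1b, with cells chosen on Hist1h1a and Hist1h1e alone, was 1.87-fold (1.82 to 1.92) and 1.99-fold (1.94 to 2.05) higher, although only 43.0% and 47.6% of those cells were histone-high by the full score. When each cell's UMIs were divided at random, the chosen cells were 3.29-fold and 3.15-fold higher in the UMIs that chose them and 2.35-fold (2.27 to 2.43) and 2.45-fold (2.38 to 2.53) higher in the UMIs that did not.

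Cluster histone genes outside the score were higher in the histone-high cells. Summed over 64 such genes, they were at 580 CPM in histone-high and 352 CPM in other control cells, a log2 ratio of 0.72 (0.66 to 0.78), and at 1088 and 615 CPM in sonKD, a ratio of 0.82 (0.77 to 0.87). Of the 64 genes, 4 reached a mean of 30 CPM, and all 4 had a log2 ratio of at least 0.32 in both libraries, the size past which genes are counted here. Over all 4735 genes tested at 30 CPM, 1.2% were higher by that size in both libraries. Another 4 reached 10 CPM, and 4 genes (Hist2h2aa2, Hist1h2bq, Hist1h4m and Hist1h2ba) had no UMI in the histone-high cells of either library.

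Among the other linker histones, Hist1h1c was at 72.8 CPM in histone-high and 40.1 CPM in other control cells, and at 73.0 and 38.1 CPM in sonKD. Its ratios were 0.86 (0.67 to 1.04) and 0.94 (0.73 to 1.14). Hist1h1d was at 70.6 and 37.1 CPM in control and at 80.0 and 44.5 CPM in sonKD, with ratios of 0.93 (0.74 to 1.11) and 0.85 (0.65 to 1.04). Both thus lay above the level of the other cells by close to the same ratio, in control and in sonKD.

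The H2A gene Hist1h2ae was at 128 CPM in histone-high and 63.8 CPM in other control cells, and at 340 and 168 CPM in sonKD, with ratios of 1.00 (0.86 to 1.14) and 1.02 (0.92 to 1.11). Hist1h2ap, also an H2A gene, was at 49.3 and 25.9 CPM in control and at 242 and 137 CPM in sonKD, with ratios of 0.93 (0.70 to 1.15) and 0.82 (0.71 to 0.93). The H4 gene Hist1h4d was at 36.4 and 21.2 CPM in control and at 53.3 and 33.4 CPM in sonKD, with ratios of 0.78 (0.52 to 1.03) and 0.67 (0.44 to 0.90). Among H3 genes, Hist1h3e had ratios of 0.63 (0.14 to 1.08) and 0.91 (0.60 to 1.22), but Hist1h3d had ratios of -0.14 (-0.49 to 0.19) and -0.10 (-0.52 to 0.30). The H2B gene Hist1h2bc was at 18.6 and 15.0 CPM in control and 17.1 and 16.4 CPM in sonKD, with ratios of 0.31 (-0.05 to 0.66) and 0.06 (-0.36 to 0.45). Counting error did not allow a difference to be seen for Hist1h3d and Hist1h2bc in either library. Of the last 400 bases of each gene, 100% of the 50-base stretches of Hist1h2ap, 86.0% of those of Hist1h3e and 44.2% of those of Hist1h2ae occur in other histone genes, so the split of counts among these copies is uncertain.

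**Figure D2:**
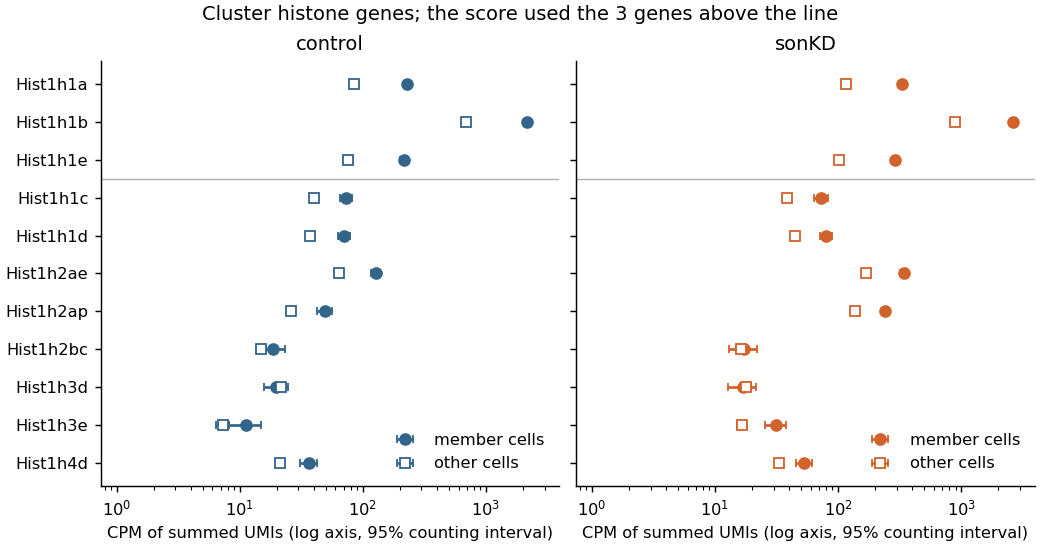
Level (horizontal axis, CPM of summed UMIs, log axis) of the 3 score genes, above the grey line, and of 8 cluster histone genes that the score did not use, in histone-high (filled) and other cells (open) of control and sonKD. Bars are 95% counting intervals; filled points lie to the right of open ones except for Hist1h3d, and the intervals of Hist1h2bc and Hist1h3d overlap.

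Free RNA carried the same histone transcripts. Barcodes with 100 to 500 UMIs from the control library held the score genes at 630 CPM, and those from sonKD at 937 CPM. Hist1h2ae stood at 124 CPM in the control droplets and at 367 CPM in those of sonKD, close to or above the level in the histone-high cells, and Hist1h2ap at 30.8 and 159 CPM, between the other and the histone-high cells. The absolute levels of Hist1h2ae and Hist1h2ap therefore cannot be read as expression in the other cells, and the part of free RNA in them was not tested. With each cell thinned to 2500 UMIs, Hist1h2ae was seen in 27.7% of histone-high and 14.9% of other control cells (unthinned 63.3% and 36.3%) and in 54.6% and 30.3% of sonKD cells (unthinned 97.1% and 69.1%). Hist1h1c was seen in 16.5% and 8.57% of thinned control cells (unthinned 42.8% and 26.5%) and in 12.8% and 8.50% of thinned sonKD cells (unthinned 50.2% and 32.7%). The intervals of its thinned sonKD shares overlapped, 9.09% to 17.4% against 7.43% to 9.68%. At this equal depth 42.6% (38.2% to 47.0%) of histone-high control cells had at least 2 UMIs of the 64 other cluster histones, against 22.0% (20.8% to 23.2%) of the rest. In sonKD 28.2% (22.9% to 33.9%) had at least 4, against 9.24% (8.12% to 10.4%).

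The histone ratio differed little between the libraries, while the level differed more. The summed ratio of the other cluster histones was 0.10 (log2, 0.02 to 0.18) larger in sonKD than in control. Hist1h2ap was higher in sonKD than in control by 2.29 in the histone-high cells and by 2.40 in the others, and Hist1h1c by 0.00 and -0.07. The difference between libraries was thus large for Hist1h2ap in both sets of cells and near 0 for Hist1h1c.

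Proteins that handle histones differed less. The chaperones, which carry histones to DNA, had 19 of 20 listed genes at 30 CPM, with a median ratio of 0.12 in control and 0.14 in sonKD, beside 0.03 and 0.04 over all genes. None was past 0.32 in size in both libraries, 13 were above 0 in both and 1 was below 0 in both. Nasp, a chaperone of H1 and H3 with H4, was at 894 CPM in histone-high and 751 CPM in other control cells and at 868 and 747 CPM in sonKD (0.25 and 0.22). Hira, which deposits the H3.3 variant outside S phase, had ratios of 0.30 and 0.27, with 46.2% of its 3' stretches shared with Gm28539 on the same strand. Its sonKD ratio was -0.03 (-0.49 to 0.40) when cells were thinned to 2500 UMIs and chosen anew on the thinned score. Asf1a, which passes H3 with H4 to other chaperones, was the 1 below 0, at -0.28 (-0.50 to -0.07) and -0.25 (-0.49 to -0.02).

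Of 15 genes for processing and control of histone messages, 10 reached 30 CPM, with medians of 0.01 and 0.14 and none past 0.32 in both. Slbp, which binds the stem-loop printed above, was at 159 and 141 CPM in control and at 150 and 116 CPM in sonKD, ratios of 0.17 (0.05 to 0.29) and 0.38 (0.24 to 0.51). Npat, the activator of histone gene transcription, had 0.05 and 0.14, and its partner Casp8ap2 0.03 and 0.01. Upf1, a helicase that takes part in decay of histone messages, had 0.33 and 0.27. It had -0.25 (-0.66 to 0.14) and -0.18 (-0.78 to 0.38) in cells thinned and chosen anew. Histone variants made outside S phase, 10 of 11 genes at 30 CPM, had medians of -0.01 and 0.03. The 1 variant lower past 0.32 in both was Cenpa, the H3 variant of centromeres, at 66.4 and 102 CPM in control and at 63.7 and 99.5 CPM in sonKD (-0.62 and -0.64). H1f0, the H1 of resting cells, had 0.37 and 0.13, and -0.19 (-0.66 to 0.25) in control cells thinned and chosen anew.

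Across all genes the histone-high cells stood close to the rest. At a mean of 30 CPM, 141 of 4735 genes (2.98%) were higher by 0.32 or more (log2) and 124 (2.62%) lower by as much in control, and 264 (5.58%) and 128 (2.7%) in sonKD. In both libraries 59 genes (1.2%) were higher and 48 (1.01%) lower. The 59 are 41.8% of the control and 22.3% of the sonKD list, and the 48 are 38.7% and 37.5%. With TMM factors, which centre the ratios, the split of genes past 0.32 in both turned from 59 higher and 48 lower to 38 higher and 73 lower, and the median of all genes went from 0.03 to -0.01 in control and from 0.04 to -0.01 in sonKD. The count of higher genes was 147 with cells limited to 5% mitochondrial UMIs and 91 with the top 5% of cells; without Hist1h1b in the score it was 146, with 22 lower. The counts of genes thus moved with the scaling, the mitochondrial limit, the size of the top group and Hist1h1b. Without TMM factors the median of all genes was above 0 in each library, so most genes lay above 0. The share of all genes above 0 in both libraries was not counted. Counts of listed genes above or below 0 therefore describe those lists only. The summed ratio of the 64 other cluster histones was 0.63 to 0.81 in control and 0.74 to 0.86 in sonKD over the alternatives run.

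**Figure D3:**
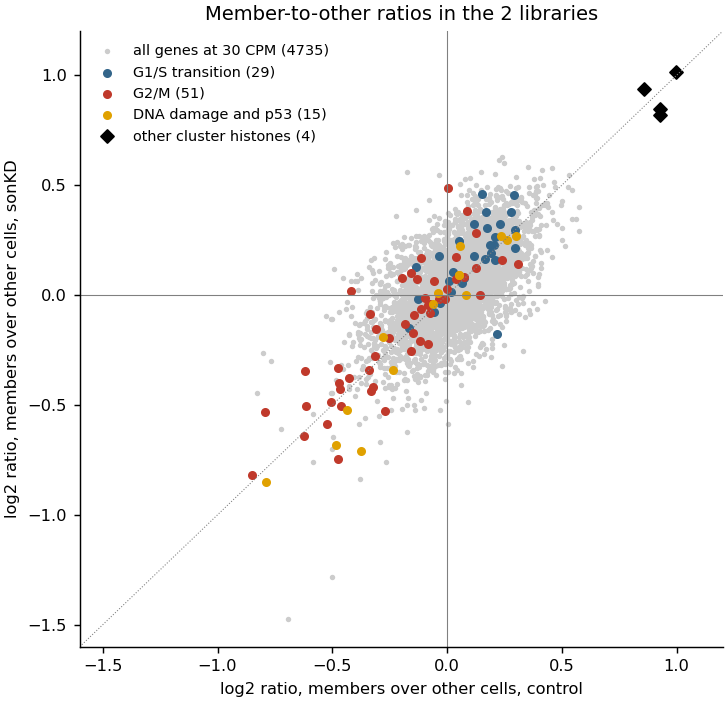
Log2 ratio of histone-high over other cells in sonKD (vertical axis) against control (horizontal axis) for 4735 genes at 30 CPM, outside the score genes where marked. Black diamonds are the 4 other cluster histones, all at 0.82 or more in both libraries, red points the G2/M genes, blue the G1/S genes and yellow the DNA damage and p53 genes; the dotted line marks equal ratios.

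Genes of the G1/S transition, which license origins and start replication, were slightly higher in the histone-high cells. Of 31 listed genes, 29 reached 30 CPM, with medians of 0.15 in control and 0.18 in sonKD, beside 0.03 and 0.04 over all genes. In both libraries 22 were above 0 and 4 below, a split that was not counted over all genes. None was past 0.32 in both, and 5 were in sonKD alone, where 5.58% of all genes were higher by that size. The summed ratio was 0.15 (0.13 to 0.17) in control and 0.21 (0.19 to 0.23) in sonKD. Mcm4, a subunit of the replicative helicase, was at 262 and 214 CPM in control and at 249 and 182 CPM in sonKD (0.29 and 0.45). Msh6, a mismatch repair protein of replicating cells, was at 311 and 257 CPM and at 322 and 248 CPM (0.28 and 0.38). Pcna, the sliding clamp, was at 262 and 223 CPM and at 239 and 191 CPM (0.23 and 0.32), with 26.6% of its 3' stretches shared with Pcna-ps2. Mcm6 had 0.21 and 0.26, and Ccne1, the cyclin that drives entry into S phase, 0.17 (0.03 to 0.30) and 0.16 (0.03 to 0.30). Ccne2 was at 7.82 and 10.9 CPM in control and at 6.37 and 8.54 CPM in sonKD, with intervals that hold 0 in both libraries.

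Of 36 replication fork genes, 29 reached 30 CPM, with medians of 0.06 and 0.14, beside 0.03 and 0.04 over all genes. Above 0 in both libraries were 20, with none below 0 in both. The splits about 0 in this paragraph were not counted over all genes and describe the lists only. Only Dna2, a nuclease that trims Okazaki fragments, was past 0.32 in both, at 47.1 and 36.9 CPM in control and at 43.7 and 29.3 CPM in sonKD (0.35 and 0.58). Wdhd1, which links the helicase to polymerase alpha, had 0.43 (0.21 to 0.64) and 0.32 (0.04 to 0.59). It had -0.17 (-0.62 to 0.24) in control cells thinned and chosen anew. For late S phase, 20 of 23 genes had medians of 0.11 and 0.21, with 14 above and 1 below 0 in both, and a summed ratio of 0.12 (0.09 to 0.14) and 0.17 (0.13 to 0.20), which was 0.07 in control with TMM factors. Atad2, a chromatin ATPase bound to new histones, was at 211 and 170 CPM in control and at 203 and 162 CPM in sonKD (0.31 and 0.32), and Blm, a helicase for stalled forks, had 0.27 and 0.34. For nucleotide supply, 20 of 21 genes had medians of 0.08 and 0.12, with 15 above and 3 below 0 in both, while the sum was 0.01 and 0.02 and turned to -0.033 in sonKD with TMM factors and to -0.015 without Hist1h1b in the score. Tk1, thymidine kinase, was at 66.9 and 57.3 CPM in control and at 52.1 and 34.1 CPM in sonKD (0.22 and 0.61), and Rrm2, a subunit of ribonucleotide reductase, had 0.15 and 0.17.

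Genes of G2 and mitosis, which build the spindle and drive division, were mostly lower in the histone-high cells. Of 56 listed genes, 51 reached 30 CPM, with medians of -0.16 in control and -0.09 in sonKD. In both libraries 16 were lower past 0.32 and none higher, while 1.01% of all 4735 genes tested were lower by that size in both. Of the list, 34 were below 0 in both and 11 above, a split that was not counted over all genes. The summed ratio was -0.23 (-0.24 to -0.21) in control and -0.17 (-0.19 to -0.15) in sonKD. In cells thinned to equal depth and chosen anew on the thinned score it was -0.12 and -0.06. These values reflect the new choice of cells as well as depth, and the part of each was not tested. At equal depth with the reported cells kept, the list had a mean of 18.9 UMIs in histone-high and 21.4 in other control cells. In sonKD the means were 17.7 and 19.3. With Hist1h1b left out of the score the summed ratio was -0.13 and -0.09.

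Ube2c, the enzyme that works with the anaphase-promoting complex, was the lowest of the list, at 190 CPM in histone-high and 343 CPM in other control cells and at 174 and 307 CPM in sonKD. Its ratios were -0.85 (-0.96 to -0.75) and -0.82 (-0.94 to -0.70). Cdc20, which activates the same complex, was at 80.1 and 139 CPM in control and at 95.3 and 138 CPM in sonKD (-0.79 and -0.53). Hmmr, a spindle protein, was at 135 and 206 CPM and at 121 and 172 CPM (-0.61 and -0.51). Cks2, a partner of cyclin-dependent kinases, had -0.53 and -0.59, with 22.8% of its 3' stretches shared with other genes. The centromere gene Cenpt had -0.58 and -0.54, and Arl6ip1, a membrane-shaping protein of the endoplasmic reticulum, was at 196 and 324 CPM and at 207 and 316 CPM (-0.72 and -0.61). Mitotic kinases named after their values were seen were Aurka (-0.48 and -0.74) and Plk1 (-0.46 and -0.50). Ccnb1, the mitotic cyclin, had -0.32 (-0.44 to -0.20) and -0.28 (-0.42 to -0.14), with 33.2% of its 3' stretches shared with pseudogenes. Cdk1 had -0.31 (-0.49 to -0.14) and -0.15 (-0.32 to 0.01). Top2a, which is made from S phase on, differed little at 0.00 (-0.07 to 0.07) and 0.03 (-0.06 to 0.11), and Mki67 had opposite signs at -0.11 (-0.25 to 0.02) and 0.17 (0.02 to 0.31).

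Cell by cell at 2500 UMIs, 3.21% (1.85% to 5.17%) of histone-high control cells had at least 32 UMIs of the G2/M list, against 11.3% (10.4% to 12.3%) of other control cells. In sonKD 4.40% (2.29% to 7.55%) had at least 29, against 13.1% (11.8% to 14.5%). For G1/S genes, 17.5% (14.2% to 21.1%) of histone-high control cells had at least 16 UMIs, against 13.5% (12.5% to 14.6%), and 20.5% (15.9% to 25.8%) of sonKD cells had at least 15, against 11.8% (10.6% to 13.2%). Few histone-high cells were thus rich in G2/M transcripts. The median of G1/S UMIs was 12 in histone-high and 11 in other control cells, and 11 and 9 in sonKD, so the sets overlapped widely. The intervals of these shares overlapped between the sets for late S genes in both libraries, and for G1/S and fork genes in control. No phase was called and DNA content was not measured, so the label of S phase rests on the histones and on these shifts.

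Ranking all cells into 10 equal bins of the score placed the histone-high cells at the end of gradients. From the lowest bin to the histone-high bin, other cluster histones went from 1.83 to 5.80 UMIs per 10000 in control and from 1.94 to 10.9 in sonKD, higher in each bin than in the one before. G2/M genes were highest in bin 2, at 101 UMIs per 10000 in control and 90.2 in sonKD, and lowest in the histone-high bin, at 76.1 and 72.0. G1/S genes were at 41.8, 45.4 and 48.7 in control bins 1, 2 and 10, with their lowest value of 41.7 in bin 5, and at 37.6, 39.2 and 46.0 in sonKD bins 1, 2 and 10. Cells with the least linker histone were thus not the ones richest in G2/M transcripts, and those of bin 1 were also the shallowest, with medians of 5777 UMIs in control and 9427 in sonKD.

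**Figure D4:**
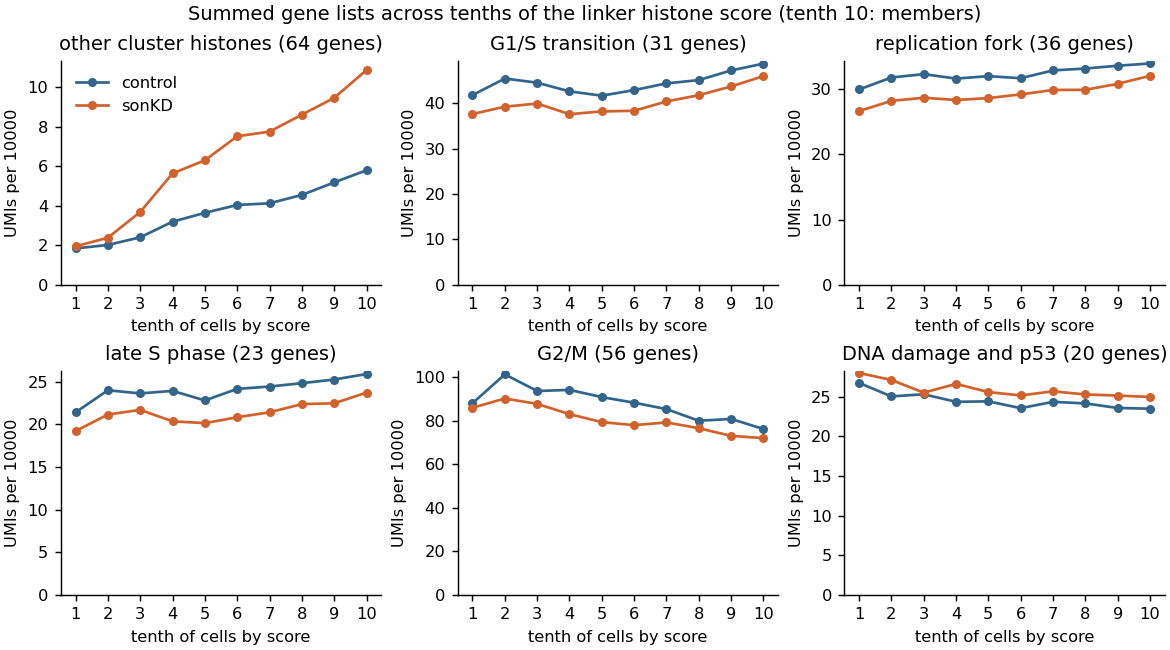
Summed UMIs of 6 gene lists per 10000 UMIs (vertical axes, from 0) in 10 bins of cells ranked by linker histone score (horizontal axes), control in blue and sonKD in orange; bin 10 is the histone-high cells. Other cluster histones climb along the whole range to 5.80 and 10.9, and G2/M genes decline from bin 2 to 76.1 and 72.0.

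Among regulators of the cycle, 10 of 19 cyclins and inhibitors reached 30 CPM, with medians of -0.18 and -0.20, and 7 were below 0 in both libraries. Ccng1, a cyclin-like target of p53, was lower past 0.32 in both, at 72.6 and 93.8 CPM in control and at 78.5 and 99.1 CPM in sonKD (-0.37 and -0.34). Rb1, the retinoblastoma protein that holds back S phase genes, was at 18.3 and 31.2 CPM in control, a ratio of -0.77 (-1.12 to -0.43), and at 25.8 and 31.7 CPM in sonKD, -0.30 (-0.63 to 0.02). Ccna2, the cyclin of S phase and G2, had -0.19 and -0.07, and 0.09 (-0.17 to 0.35) in control cells thinned and chosen anew.

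The DNA damage and p53 list was divided. Of 20 genes, 15 reached 30 CPM, with medians of -0.04 and 0.00 and summed ratios of -0.06 and -0.05. In both libraries 7 were above 0 and 7 below. Lower past 0.32 in both were 4, while 1.01% of all 4735 genes tested were lower by that size. All 4 are known targets of p53, the transcription factor of the damage response, and the list was drawn up to include p53 genes. Perp, a membrane protein of apoptosis, was at 21.7 and 37.5 CPM in control and at 29.0 and 52.3 CPM in sonKD, ratios of -0.79 (-1.11 to -0.48) and -0.85 (-1.16 to -0.56). Mdm2, which marks p53 for degradation, was at 104 and 145 CPM and at 82.9 and 133 CPM, ratios of -0.48 (-0.63 to -0.34) and -0.68 (-0.86 to -0.51). Trp53inp1 (-0.37 and -0.71) and Phlda3 (-0.44 and -0.52) complete the 4 and were named after their values were seen, as were genes of damage signalling and repair with the opposite sign. Of the latter, Atm had 0.26 and 0.25, Rad18 0.30 and 0.27, and Topbp1 0.23 and 0.27. At 2500 UMIs, 6.23% (3.67% to 9.78%) of histone-high sonKD cells had at least 11 UMIs of the list, against 11.4% (10.2% to 12.8%) of the others, and 11.2% (8.61% to 14.4%) of histone-high control cells had at least 10, against 12.9% (12.0% to 14.0%).

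The highest genes in both libraries outside the histones were higher by 0.42 to 0.58. Zfp143, a transcription factor of many promoters, was at 65.7 and 45.5 CPM in control and at 59.7 and 40.8 CPM in sonKD, ratios of 0.53 (0.34 to 0.72) and 0.55 (0.33 to 0.76). Xpo5, which exports microRNA precursors, had 0.55 and 0.48, and Slc7a1, a transporter of basic amino acids, 0.47 and 0.49. Rad51b, a gene of recombination repair, was at 255 and 189 CPM and at 229 and 171 CPM, ratios of 0.43 (0.34 to 0.53) and 0.42 (0.31 to 0.53). Nhlrc2 had 0.53 and 0.49, and -0.01 in control when score and levels came from separate UMIs. Atxn2l had 0.47 and 0.52, Camkmt 0.46 and 0.58, Cog5 of the Golgi 0.44 and 0.46, Scfd2 0.50 and 0.43, and the nonmuscle myosin Myh10 0.42 and 0.42. Cog5 and Scfd2 hold other annotated genes on their own strand, so their counts may include reads of those. Of the lowest genes not yet named, S100a6, a calcium-binding protein, had -0.69 and -1.47 and the transcription factor gene Zfhx3 -0.58 (-0.90 to -0.28) and -0.76 (-1.12 to -0.42).

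Several of the highest genes are long, and the ratio followed the length of the gene on the genome, a relation looked for after these genes were seen. Camkmt spans 368 kb, Scfd2 327 kb, Cog5 283 kb and Rad51b 517 kb. With 4735 genes in 10 groups by span, the median ratio was -0.06 in control and -0.05 in sonKD for the shortest group (median 2.80 kb) and 0.14 and 0.15 for the longest (median 203 kb). Spearman's rho across genes was 0.43 and 0.38; genes of a library share its cells and are not independent. The longest group held 25 of the 59 genes higher in both libraries. With genes of at most 50 kb alone, 20 were higher and 45 lower. Whether intronic reads were counted is not given in the sources used here, and the part of introns in this relation was not tested.

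**Figure D5:**
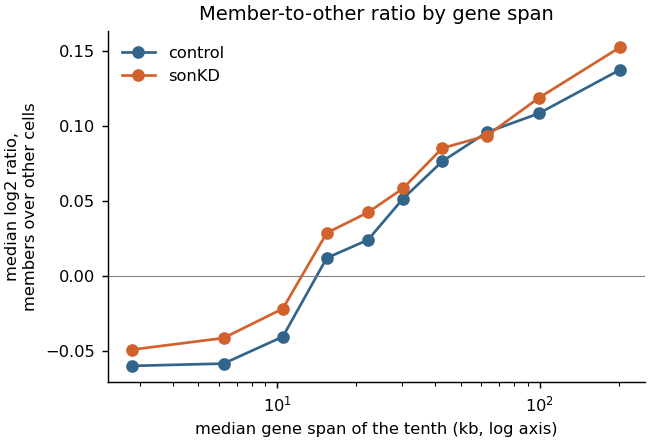
Median log2 ratio of histone-high over other cells (vertical axis) for 10 groups of genes by span in GENCODE M21 (horizontal axis, median of the group in kb, log axis), control in blue and sonKD in orange. Medians go from -0.06 and -0.05 at 2.80 kb to 0.14 and 0.15 at 203 kb.

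Pluripotency genes differed little between the histone-high cells and the rest. More naive genes lay slightly above 0 than below, but the median of all genes was also above 0, at 0.03 in control and 0.04 in sonKD. Pou5f1, the core factor Oct4, was at 1014 CPM in histone-high and 1114 CPM in other control cells and at 893 and 919 CPM in sonKD, ratios of -0.14 (-0.18 to -0.09) and -0.04 (-0.10 to 0.01). Nanog had -0.02 (-0.14 to 0.09) and 0.00 (-0.13 to 0.13). Sox2, whose span lies inside Sox2ot on the same strand, had 0.12 and 0.14. Of 18 naive pluripotency genes, 16 reached 30 CPM, with medians of 0.12 and 0.13, 11 above and 3 below 0 in both libraries and none past 0.32 in both, while the sum was 0.01 and 0.01. Klf5 was at 399 and 332 CPM in control and at 362 and 313 CPM in sonKD (0.26 and 0.21), and Stat3, which acts downstream of leukaemia inhibitory factor, had 0.22 and 0.28. Of 14 formative and primed genes, 4 reached 30 CPM and 1, Fgf5, had no UMI in histone-high cells of either library. Tcf15 had 0.19 and 0.10, and Dnmt3b, a DNA methyltransferase, 0.31 (0.09 to 0.52) and -0.04 (-0.31 to 0.22).

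Markers of other cell types were low, except for Fn1 of the fibroblast list. Summed, 11 trophectoderm markers were at 53.5 CPM in histone-high and 71.8 CPM in other control cells and at 60.3 and 95.9 CPM in sonKD, with Elf5, Gata3 and Hand1 at 0 in histone-high cells of both. The most abundant was Krt8, a keratin, at 30.5 and 37.5 CPM and at 30.1 and 44.1 CPM (-0.30 and -0.55). The 13 primitive endoderm markers summed to 78.9 and 80.6 CPM in control and to 64.6 and 64.7 CPM in sonKD, with Sox17, Foxa2 and Cubn at 0 in histone-high cells, and their most abundant, Lama1, had 0.02 and 0.23. The 9 mesoderm markers summed to 0.977 and 1.71 CPM and to 0.290 and 1.5 CPM, with T, Evx1, Kdr, Hand2 and Foxf1 at 0. Neuroectoderm markers summed to 137 and 126 CPM and to 113 and 108 CPM, with Olig2 at 0. Of these, Ncam1, an adhesion molecule, was past 0.32 in both, at 82.6 and 60.0 CPM and at 60.5 and 47.9 CPM (0.46 and 0.34), and it spans 297 kb, while Tubb3 had -0.24 and -0.23. The 10 fibroblast and feeder markers summed to 197 and 194 CPM in control and to 170 and 157 CPM in sonKD, the highest of these lists. Fn1 gave nearly all of their counts (0.04 and 0.12), and Col1a2, Col3a1, Postn, Lum, Dcn and Acta2 were at 0 in histone-high cells.

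Son, the target of the siRNA and a protein of nuclear speckles, was at 169 CPM in histone-high and 168 CPM in other control cells and at 107 and 106 CPM in sonKD, so its level differed between libraries and not by histone score (0.00, -0.11 to 0.12, and 0.01, -0.15 to 0.17). Of 20 speckle and SR protein genes, 19 reached 30 CPM, with medians of 0.05 and 0.08 and none past 0.32 in both. Sart1, a factor of the spliceosome, had 0.26 and 0.47, and the kinase Clk2 0.32 and 0.31. Clk2 had -0.24 (-0.93 to 0.40) in sonKD cells thinned and chosen anew. Nuclear RNAs, 6 of 9 at 30 CPM, had medians of 0.05 and -0.05. Malat1, a long noncoding RNA of speckles, had 0.07 and 0.04 and turned negative under several settings, and Kcnq1ot1, the imprinted antisense RNA, had 0.23 and 0.14. Gm42418, which overlaps ribosomal RNA sequence, had -0.01 and -0.17.

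The contrast of histone-high with other cells was set side by side between the libraries for every gene. The intervals of the ratio did not overlap for 67 of 4735 genes, with 36 higher and 31 lower in sonKD. S100a6 was at 65.5 and 106 CPM in control and at 93.3 and 259 CPM in sonKD, ratios of -0.69 (-0.88 to -0.52) and -1.47 (-1.64 to -1.31). Sfn, the p53 target 14-3-3 sigma, was at 42.3 and 59.8 CPM and at 31 and 75.4 CPM, ratios of -0.50 (-0.73 to -0.28) and -1.28 (-1.58 to -1.0), and 0.03 in control when Hist1h1b was left out of the score. Both were thus higher in the other cells of sonKD than in those of control, and lower in histone-high than in other cells of each library. Ptprf, a receptor phosphatase, had 0.33 (0.14 to 0.52) and -0.25 (-0.52 to 0.01). On the other side, Ganab, a glucosidase of the endoplasmic reticulum, was at 46.4 and 52.4 CPM in control and at 54.2 and 36.8 CPM in sonKD, ratios of -0.18 (-0.40 to 0.04) and 0.56 (0.33 to 0.78). Cox6b2 had -0.49 and 0.12, Dusp27 -0.04 and 0.55, Emc3 -0.22 and 0.36, and Noc4l -0.45 and 0.08. With 1 library each, these gaps were not tested as differences between conditions.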

How the data were processed

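UMI counts per gene and barcode were deposited as raw matrices, 1 per library. Per the submitters' processing notes the authors used Cell Ranger 7.1.0 and the build mm10; the annotation and the handling of intronic reads are not given in the sources used here. The counts were whole numbers with every barcode listed, so cells were kept by the limits given in the report. Kept cells of the 2 libraries held 40902904 and 32032551 UMIs, of which 4093612 and 3451786 were in histone-high cells.

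UMIs were summed over histone-high and other cells of each library and scaled to CPM with no pseudocount. Levels have exact Poisson intervals, ratios exact conditional binomial ones and shares Clopper-Pearson ones, all at 95%; UMIs limit amplification error, and intervals cover counting error only. A gene was counted when its log2 ratio was 0.32 or more in size with the same sign in both libraries, among genes whose mean reached 30 CPM. The calculations were tested on simulated data. Named genes were the score genes, other cluster histones at 10 CPM, the 10 highest and 10 lowest in both libraries, the 2 farthest from 0 in each list, the 5 largest gaps each way between libraries, and a set of cell cycle, histone and pluripotency genes; others are said to be named after their values were seen. The cells, lists and rules were chosen with earlier results of these data known. Positions are from GENCODE M21 (GRCm38), promoters from RefSeq (GRCm38.p6), where 62 cluster histone genes matched by symbol or synonym. Python 3.11.15 with numpy 2.4.6, scipy 1.17.1, pandas 2.3.3 and scanpy 1.11.5 (Scrublet), and edgeR 4.0.16 in R 4.3.3 for TMM factors alone, were used. Alternatives covered the size of the top group, UMI and mitochondrial limits, thinning, each score gene left out, separate UMIs for score and levels, doublet removal, scaling, and gene filters. Clusters were not made.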

Additional observations from a re-analysis of the deposited data

Results flagged for a closer look

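Mea1 had opposite signs in the libraries: histone-high cells were at 47.4 CPM and other cells at 40.2 CPM in control, a log2 ratio of 0.24 (0.02 to 0.46), and at 34.8 and 43.5 CPM in sonKD, a ratio of -0.32 (-0.61 to -0.05). The ratio was lower in sonKD by -0.56, and Mea1 (chr17:46678793-46683111) overlaps Gm26904 on its own strand. Mecr, an enzyme of mitochondrial fatty acid synthesis, was at 59.6 and 50.2 CPM in control, a ratio of 0.25 (0.05 to 0.44), and at 59.7 and 69.8 CPM in sonKD, a ratio of -0.23 (-0.44 to -0.02), a gap of -0.47. Both stood out because the intervals of the 2 libraries lay on opposite sides of 0. With 1 library each the difference was not tested. Opposite signs were looked for among the named genes and the lists alone, and not over all 4735 genes. The named genes included those with the largest gaps of the 4735.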

How the results depend on the processing

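Of 151 alternative values of the leading results, 105 stayed within the limit set for them, 46 moved past it and none changed direction. Counts of genes have no counting interval, were held to a fold change and cannot change direction. For ratios the limit was the counting interval of the reported value. For single genes 1973 of 2184 values stayed within that interval, 191 moved and 20 reversed, and for the remaining lists 375 of 464 stayed, 81 moved and 8 reversed. The cause of each shift was not tested. Values are log2 ratios, control before sonKD, unless they are counts of genes past 0.32 in both libraries (59 higher and 48 lower as reported).

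With the top 5% of cells, 91 genes were higher, other cluster histones were at 0.81 in control, G1/S at 0.18 in control, G2/M at -0.25 and -0.20, and Malat1 at -0.070 in sonKD. With the top 20%, G2/M was at -0.20 in control, and with at least 5000 UMIs at -0.24. With at most 5% mitochondrial UMIs, 147 genes were higher, other cluster histones were at 0.77 in sonKD, G2/M at -0.27 and -0.21, and histone variants at -0.0042 in sonKD. Cells thinned to 2500 UMIs were chosen anew on the thinned score, with 579 and 383 cells at or above the limit because of ties. Their control values were 0.65 for other cluster histones and 0.12 for G1/S, and G2/M was at -0.12 and -0.061. Thinning also reversed formative and primed genes (-0.0055, control), nuclear RNAs (-0.071, control), H1f0 (-0.19, control), Upf1 (-0.25 and -0.18), Hira (-0.033, sonKD), Wdhd1 (-0.17, control), Clk2 (-0.24, sonKD), Ccna2 (0.094, control) and Malat1 (-0.043 and -0.12). Without Hist1h1a or Hist1h1e in the score, Malat1 in sonKD was -0.0039 and -0.026. Without Hist1h1b, 146 genes were higher and 22 lower, other cluster histones were at 0.63 and 0.74, G1/S at 0.11 and 0.17, and G2/M at -0.13 and -0.089. This also reversed in sonKD histone variants (-0.038), nucleotide supply (-0.015), Tcf15 (-0.011) and Gm42418 (0.00035), and in control Sfn (0.026). With separate UMIs for score and levels, control values were 0.12 for G1/S, 0.084 for late S and -0.20 for G2/M, with Nhlrc2 at -0.013 in control and Malat1 at -0.032 in sonKD. With means of CPM per cell, G2/M was at -0.18 and -0.12, nuclear RNAs at -0.047 in control and Malat1 at -0.022 and -0.16. With TMM factors, 38 genes were higher and 73 lower, other cluster histones were at 0.77 in sonKD, G1/S at 0.10 and 0.16, late S at 0.072 and 0.11, and G2/M at -0.27 and -0.23, with histone variants (-0.023), nucleotide supply (-0.033) and Malat1 (-0.017) reversed in sonKD. Filters on genes gave 134 higher and 142 lower at 10 CPM, 9 and 20 at 100 CPM, and 938 and 1002 with no filter; 1.5-fold gave 4 and 5. Genes of at most 50 kb, an alternative chosen after seeing the data, gave 20 higher; weighting other cells to the depth of the histone-high cells, also added then, moved no leading result beyond its interval.

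No paired analysis was possible because each group held 1 library. Depth limits the smaller genes: many single ratios under the size counted have intervals that hold 0. Leaving out a replicate could not be done. The top 10% leaves cells just under the limit among the others.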
